A study of Mus musculus with 6 samples.

Results

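The genes described here are the replication-dependent histone genes, the copies that supply histone protein during DNA synthesis. They were chosen by name: every gene whose platform symbol begins as the clustered H1, H2A, H2B, H3 and H4 genes do, read from probe sets that name 1 gene, with the brightest probe set per gene. This gave 27 of the 22180 genes in the table: 6 of H1, 6 of H2A, 8 of H2B and 7 of H4. No H3 gene had a probe set of its own, because each H3 probe set in the annotation names several genes at once. The letters of the rule also match H1f10, a linker histone made outside S phase, and 3 genes known from germ cells, H1f6, H2ac1 and H2bc1, which are named as such below. In the GRCm38.p6 gene table of RefSeq, 21 of the 27 lie on chromosome 13, 5 on chromosome 3 and H1f10 on chromosome 6.

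The series holds 6 arrays of mouse mammary RNA, 3 of wild-type cells and 3 of tumors, and asks how the tumors differ from cells of the type they are thought to arise from. The wild-type group (K8wt, replicates 1, 2 and 4) is luminal epithelial cells sorted as YFP+ from Rosa26-Stop-YFP females, 10 to 14 days after Ad-K8-Cre was injected into the ducts. Ad-K8-Cre is an adenovirus whose Cre recombinase is driven by a keratin 8 promoter, and both groups received it. The tumor group (Brca1Tumor, tumors 23, 24 and 25), which the labels call Trp53/Brca1-null, came from females of genotype Trp53L/L;Brca1L/L, given the virus several months earlier. The 3 wild-type samples are 3 numbered mice. The labels give no age, describe no sorting of the tumors, and leave unsaid if any tumors shared a mouse, in which case p-values would measure in part the spread within it. A tumor piece can hold other cells besides the tumor's own, and the wild-type arrays also read markers of other cell types, given below.

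Histones package DNA into nucleosomes, with pairs of H2A, H2B, H3 and H4 at the core and H1 on the linker. A dividing cell must make a full new set in S phase, and most of it comes from multi-copy, intronless genes that lie in clusters. Their mRNAs end in a stem-loop bound by Slbp instead of a poly(A) tail, their transcription depends on Npat, a target of cyclin E and Cdk2, and they decay when DNA synthesis ends. Some copies, H1f2 among them, are also known to give polyadenylated transcripts in cells that no longer divide. Because the copies of a family encode nearly the same protein from nearly the same sequence, array probes for 1 copy can take up signal from another, and each gene's value is uncertain in that respect.

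Promoters of histone genes are known for a few short elements, and those of the genes on which the values below turn are shown to make the families visible. Each stretch is the 150 bases before the RefSeq start of the gene (GRCm38.p6), written 5′ to 3′ on the strand of the gene. Capitals mark CCAAT (read from the other strand, ATTGG) and TATAAA (from the other strand, TTTATA). They also mark the octamer ATTTGCAT (from the other strand, ATGCAAAT), known from H2B promoters. The last is the H1 box AAACACA (from the other strand, TGTGTTT), known from H1 promoters. In these stretches no match overlaps another, and that of H4c8 holds none, which says only that these letters are not in it. H2ac20 lies at chr3:96220881-96221030 (minus strand), H2ac21 at chr3:96219735-96219884 (plus strand), H2bc3 at chr13:23746584-23746733 (plus strand) and H2bc18 at chr3:96269550-96269699 (plus strand). H1f1 lies at chr13:23763518-23763667 (plus strand), H1f2 at chr13:23738657-23738806 (plus strand), H4c8 at chr13:23530894-23531043 (plus strand) and H4c12 at chr13:21750554-21750703 (minus strand).
H2ac20: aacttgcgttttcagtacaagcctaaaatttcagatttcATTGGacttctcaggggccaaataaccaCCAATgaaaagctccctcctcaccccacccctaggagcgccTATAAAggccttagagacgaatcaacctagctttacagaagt
H2ac21: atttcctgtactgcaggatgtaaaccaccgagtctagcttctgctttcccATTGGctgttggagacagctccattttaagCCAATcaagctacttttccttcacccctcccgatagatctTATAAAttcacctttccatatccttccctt
H2bc3: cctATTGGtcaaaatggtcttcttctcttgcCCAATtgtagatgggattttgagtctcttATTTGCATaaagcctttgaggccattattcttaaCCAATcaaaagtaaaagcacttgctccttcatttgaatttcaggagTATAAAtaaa
H2bc18: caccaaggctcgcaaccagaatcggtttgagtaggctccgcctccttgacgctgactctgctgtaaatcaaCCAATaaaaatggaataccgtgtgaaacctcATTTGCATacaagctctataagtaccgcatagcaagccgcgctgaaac
H1f1: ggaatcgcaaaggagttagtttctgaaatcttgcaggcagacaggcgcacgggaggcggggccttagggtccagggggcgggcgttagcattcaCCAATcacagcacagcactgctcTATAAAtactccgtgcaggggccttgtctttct
H1f2: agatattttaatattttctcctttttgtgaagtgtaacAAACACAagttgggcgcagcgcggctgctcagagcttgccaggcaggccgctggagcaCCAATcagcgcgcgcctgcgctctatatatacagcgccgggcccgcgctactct
H4c8: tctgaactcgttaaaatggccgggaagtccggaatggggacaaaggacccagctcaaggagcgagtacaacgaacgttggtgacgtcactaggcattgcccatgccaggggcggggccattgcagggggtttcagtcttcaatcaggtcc
H4c12: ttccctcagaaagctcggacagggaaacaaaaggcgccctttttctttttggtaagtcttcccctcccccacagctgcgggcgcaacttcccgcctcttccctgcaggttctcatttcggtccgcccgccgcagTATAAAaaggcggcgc

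A RefSeq promoter was matched for 25 of the 27 genes, with 250 bases before the start and 50 after it, and the same window of 27025 genes served for comparison. CCAAT was present in 19 of the 25 (76%), against 37.9% of all promoters. It was in all 6 H2A and all 7 H2B promoters, in 5 of 6 of H1 (not H1f10) and in 1 of 6 of H4 (H4c1). TATAAA was in 16 of 25 (64%, against 14.2%). The octamer was in 8 of 25 (32%, against 1.75%), all of them H2A or H2B genes: H2ac1, H2ac12, H2ac20, H2bc1, H2bc3, H2bc12, H2bc14 and H2bc18 (in H2ac20 farther upstream than the stretch shown). The H1 box was in 7 of 25 (28%, against 7.14%), with 4 of these among H1 (H1f2, H1f3, H1f5 and H1f6). The windows of H2ac12 and H2bc12, on opposite strands, overlap by 277 bases, and those of H2ac1 and H2bc1 by 220. A match is a description of letters and not a site of binding.

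The values are log2 expression after RMA, and none of the 27 histone genes passed limma's test between tumors and wild-type cells after Benjamini-Hochberg adjustment over all genes (threshold 0.05), where 3.91% of all genes did (2.52% higher and 1.39% lower in tumors). At an unadjusted p under 0.05 there were 6, namely H1f1, H2ac20, H2bc3 and H2bc18 with higher and H1f2 and H4c8 with lower values in tumors, against 26.4% of all genes (13.4% higher, 13% lower). Means were higher in tumors for 12 genes and lower for 15, with a median difference of -0.15 (-0.12 over all genes). These counts include genes not told from background, which are given below. At least 2-fold differences were upward for 6 genes and downward for 2, where all genes gave 10.7% and 3.81%. The groups did not overlap for 5 of the 27, against 36.4% of all genes: H2ac20 was higher (14% of all genes) and H1f2, H1f3, H1f6 and H4c8 were lower (22.4%). Without H1f10 the median difference was -0.21, and without the germ cell genes as well it was -0.15. The tumors were not of 1 kind in these genes. Without tumor 24, 6 genes passed, all higher: H1f1, H2ac10, H2ac20, H2ac21, H2bc3 and H2bc12, where 5.41% of all genes passed in either direction and 4.08% upward. Tumor 24 was the lowest tumor for each of these 6, so leaving it out raises their differences. Their p-values without it rest on 2 tumors and give no separate support. Without any other single array none passed, where the share of all genes was 0.622%, 0.766% and 0.325% without wild-type replicates 1, 2 and 4, and 0.64% and 1.69% without tumors 23 and 25. Tissue arrays do not tell fewer cells of a type from less RNA per cell.

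**Figure D1:**
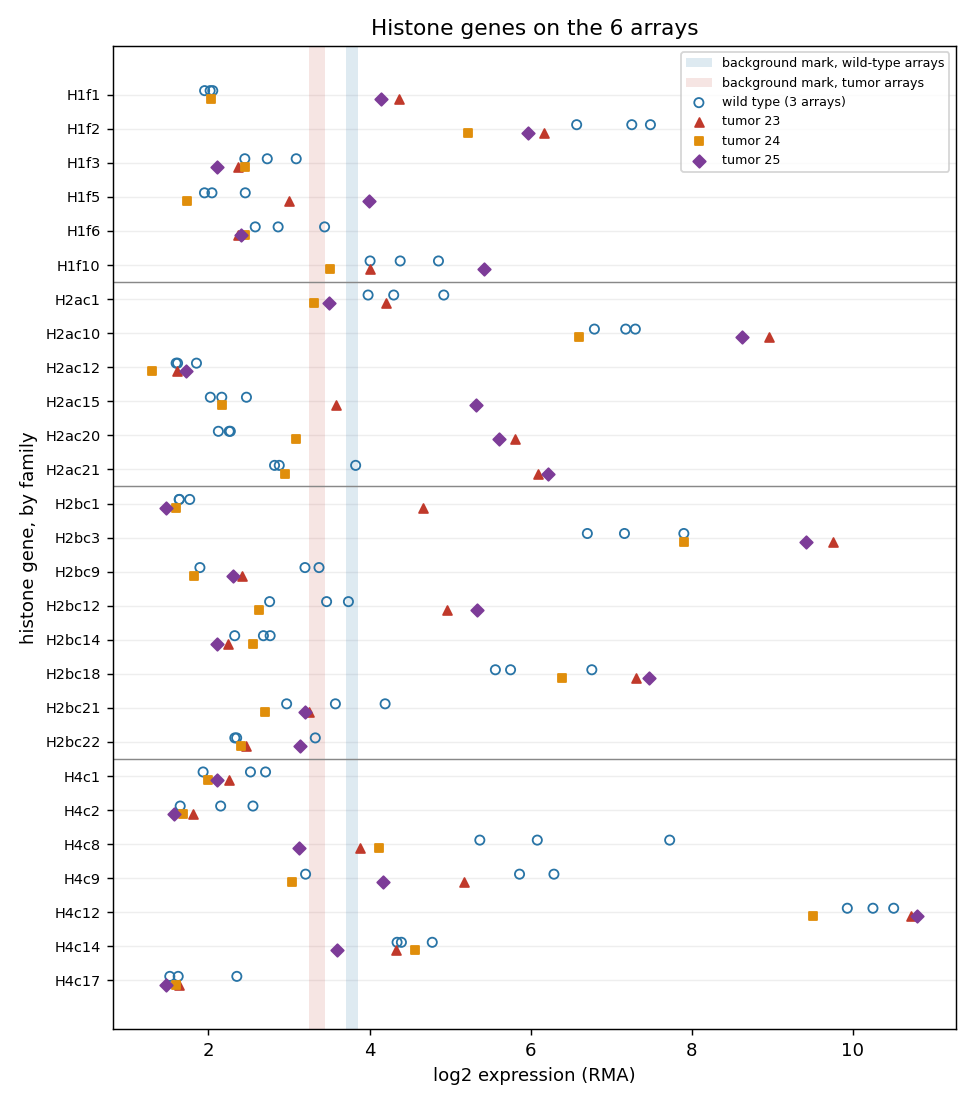
Log2 expression (x axis, RMA) of the 27 histone genes (rows, by family) on each array; open circles are the 3 wild-type arrays, and the triangle, square and diamond are tumors 23, 24 and 25. Shaded bands span the background marks of the wild-type arrays (3.70 to 3.86) and the tumor arrays (3.24 to 3.45); for H1f1, H2ac15, H2ac20, H2ac21 and H2bc12 tumors 23 and 25 lie apart from tumor 24 and from the wild-type arrays.

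Array signal has no zero, so the 95th percentile of 1105 olfactory receptor genes on each array was taken as a mark for background. By it, 7 genes lay above background on all 6 arrays (H1f2, H1f10, H2ac10, H2bc3, H2bc18, H4c12 and H4c14). Another 9 lay under it on all 6 (H1f3, H1f6, H2ac12, H2bc9, H2bc14, H2bc22, H4c1, H4c2 and H4c17), and their differences are not told from background. The remaining 11 crossed it. Of the 18 above it on at least 1 array, 11 had higher and 7 lower means in tumors. Their median difference was 0.83, against 0.16 over all genes so filtered. Several, such as H1f1 and H2ac20, were above the mark in tumors alone, so the filter itself raises that median. Where a group lies under the mark, its differences are differences of RMA values only and their size is not settled.

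H2A forms a dimer with H2B, and 4 of the 6 H2A genes measured higher in tumors. H2ac20 read 2.26, 2.12 and 2.27 in wild-type replicates 1, 2 and 4, and 5.81, 3.09 and 5.61 in tumors 23, 24 and 25. Every tumor lay above every wild-type array, tumor 24 by the least. The difference was 2.62 ± 0.70 log2 units (SE, n = 3 and 3), at an adjusted p of 0.090 (limma). It was 3.49 ± 0.19 without tumor 24 (n = 3 and 2, adjusted p of 0.0087) and 2.13 ± 0.71 without tumor 23 (adjusted p of 0.19). The wild-type values and tumor 24 were under the background mark. With array weights H2ac20 passed upward, where 3.85% of all genes did. H2ac21 read 3.83, 2.82 and 2.88 in wild-type cells and 6.10, 2.95 and 6.22 in tumors, so tumors 23 and 25 were high and tumor 24 lay within the wild-type range. Its difference was 1.91 ± 0.89 (adjusted p of 0.22 in limma). It was 2.98 ± 0.35 without tumor 24 (adjusted p of 0.020) and 1.41 ± 0.96 without tumor 23 (adjusted p of 0.42). H2ac21 also has a dimmer probe set, which turned the other way: 3.34, 3.64 and 3.47 in wild-type cells and 3.07, 2.71 and 3.01 in tumors, a difference of -0.55 with all those values under the mark. With both probe sets averaged, the difference of H2ac21 was 0.68 (adjusted p of 0.39).

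H2ac10, which was above background throughout, read 7.18, 6.79 and 7.30 in wild-type cells and 8.97, 6.60 and 8.63 in tumors. Tumor 24 was the lowest array of the 6 and tumors 23 and 25 the highest. The difference was 0.97 ± 0.61 (SE; adjusted p of 0.33 in limma), and 1.70 ± 0.25 without tumor 24 (adjusted p of 0.027). Without tumor 23 it was 0.52 (adjusted p of 0.61), and with arrays centred on housekeeping genes 0.31. The 14 housekeeping genes had list means of 7.42 to 7.62 in wild-type cells and 7.81 to 8.49 in tumors. Centring on them therefore lowers tumor values against wild-type values. H2ac15 read 2.47, 2.02 and 2.16 in wild-type cells and 3.59, 2.16 and 5.32 in tumors, again with tumor 24 at the wild-type level and tumor 25 highest. H2ac12 stayed between 1.29 and 1.85 on all 6 arrays, under background. The germ cell copy H2ac1 read 3.98, 4.92 and 4.30 against 4.21, 3.32 and 3.50, a difference of -0.73 ± 0.34 (adjusted p of 0.22). The median difference of the 6 H2A genes was 1.22, and with 1 array left out it ranged from 0.67 without tumor 25 to 1.97 without tumor 24. It was 0.56 under housekeeping centring and 0.83 with each gene's probe sets averaged.

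H2B completes the dimer, and 3 of its 8 genes shared the pattern of those H2A genes. H2bc3 read 7.90, 6.71 and 7.17 in wild-type cells and 9.75, 7.90 and 9.42 in tumors, so tumor 24 met the highest wild-type array and the other tumors lay above all. The difference was 1.77 ± 0.54 (SE), which is 3.40-fold, at an adjusted p of 0.11 (limma). It was 2.33 ± 0.38 without tumor 24 (adjusted p of 0.034) and 1.40 ± 0.56 without tumor 23 (adjusted p of 0.24). Housekeeping centring gave 1.11. H2bc18, of the chromosome 3 cluster, read 6.76, 5.56 and 5.75 against 7.31, 6.39 and 7.48, a difference of 1.03 ± 0.42 (adjusted p of 0.18). Tumor 24 lay inside its wild-type range, and housekeeping centring gave 0.38. H2bc12 read 3.74, 2.76 and 3.47 in wild-type cells, all under background, and 4.96, 2.63 and 5.34 in tumors. Its difference was 0.99 ± 0.71 (adjusted p of 0.39), and 1.83 ± 0.34 without tumor 24 (adjusted p of 0.043). It was 0.47 without tumor 25 (adjusted p of 0.70), 0.66 without tumor 23 and 0.33 under housekeeping centring.

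The other H2B genes did not share that pattern. H2bc21, a copy of the chromosome 3 cluster that is also known to give polyadenylated transcripts, read 3.58, 2.97 and 4.19 in wild-type cells and 3.25, 2.70 and 3.20 in tumors (-0.53 ± 0.34, SE, adjusted p of 0.34 in limma). H2bc9, H2bc14 and H2bc22 were under background on every array, with differences of -0.64, -0.29 and 0.00. The germ cell copy H2bc1 was between 1.47 and 1.77 on 5 arrays and at 4.67 in tumor 23, so its difference of 0.90 ± 0.83 comes from 1 tumor and is -0.15 without it. The median of the 8 H2B genes was 0.45, and it was -0.02 without tumor 23 and -0.21 when arrays were centred on housekeeping genes.

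**Figure D2:**
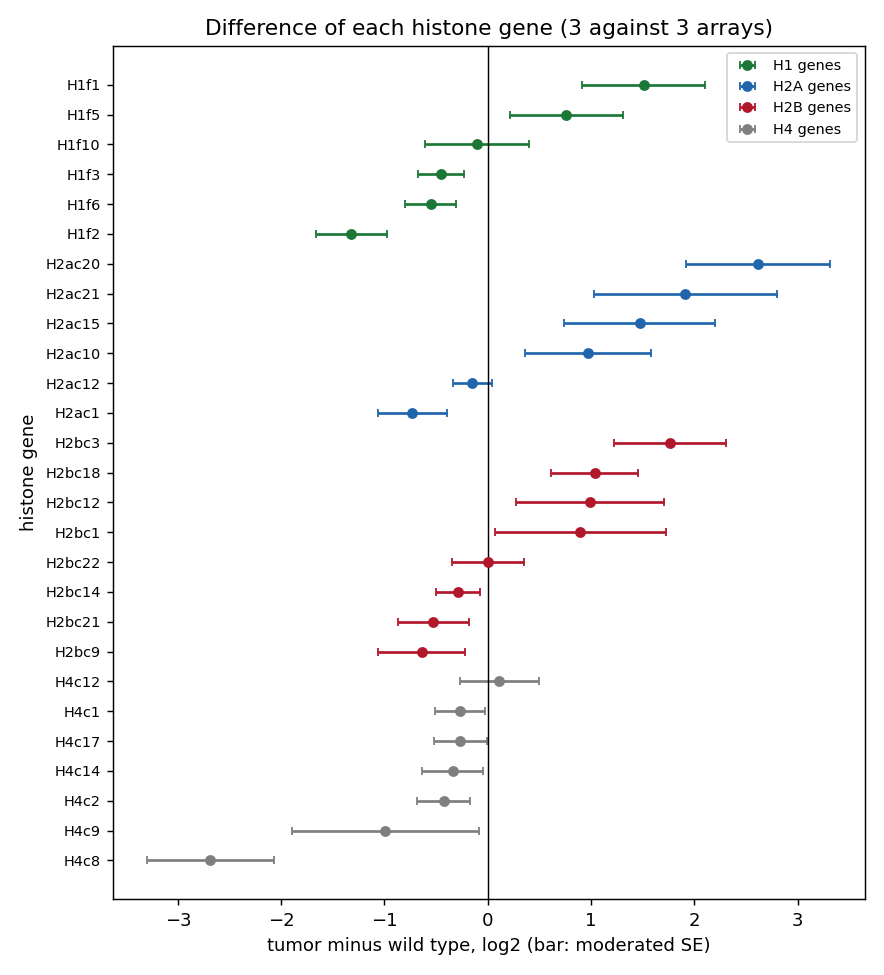
Difference of each of the 27 histone genes, tumor minus wild type, in log2 units (x axis), with the moderated standard error as a bar and colour for the family; n = 3 arrays in each group. H2ac20 (2.62) and H4c8 (-2.68) have the largest differences in each direction, and none of the 27 passed the test over all genes.

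H1 genes, whose proteins bind the DNA between nucleosomes, split by copy. H1f1 read 2.02, 2.05 and 1.95 in wild-type cells and 4.37, 2.04 and 4.15 in tumors, with tumor 24 at the wild-type level under background and the other tumors above it. Its difference was 1.51 ± 0.60 (SE, adjusted p of 0.18 in limma). It was 2.25 ± 0.19 without tumor 24 (adjusted p of 0.014) and 1.08 ± 0.60 without tumor 23 (adjusted p of 0.35). Housekeeping centring gave 0.85. H1f5 read 2.46, 2.04 and 1.95 against 3.01, 1.74 and 3.99, above the mark in tumor 25 alone. H1f2 lay in the opposite direction. It read 6.57, 7.49 and 7.26 in wild-type cells and 6.17, 5.22 and 5.97 in tumors, with no overlap and tumor 24 lowest. That difference was -1.32 ± 0.34 (2.50-fold lower) at an adjusted p of 0.085 (limma), and it ranged from -1.59 to -1.04 when each array was left out in turn. H1f3 and the germ cell copy H1f6 were under background on all arrays, with differences of -0.45 and -0.55. The replication-independent H1f10 read 4.86, 4.01 and 4.38 against 4.00, 3.51 and 5.42 (-0.10 ± 0.51), and its sign turned in 3 of the 6 sets that leave out 1 array.

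H4 is the most conserved core histone, and its genes encode the same protein. H4c8 had the largest difference of the 27. It read 5.37, 7.73 and 6.08 in wild-type cells and 3.88, 4.12 and 3.13 in tumors, so all 3 tumors were lower and tumor 25 was under background. The difference was -2.68 ± 0.61 (SE), or 6.43-fold lower, at an adjusted p of 0.065 (limma). H4c8 passed, downward, when limma used a trended robust prior (adjusted p of 0.040), where 1.96% of all genes were lower. It also passed when only genes with a mean of at least 5 (adjusted p of 0.015, 3.44% lower) or at least the median (adjusted p of 0.024, 2.92% lower) were tested, and its adjusted p ran from 0.0048 to 0.16 over all alternatives. H4c12 read 10.51, 9.93 and 10.25 in wild-type cells and 10.72, 9.51 and 10.80 in tumors. Its difference was 0.11 ± 0.38, with tumor 24 the lowest array, and it turned to -0.55 when arrays were centred on housekeeping genes. That centring, on genes that were themselves higher in tumors (11 of 14, median difference of 0.98), called 2.54% of all genes higher and 35.8% lower. Of the histone genes it called 1 higher (H2ac20) and 10 lower. H4c9 spread widely within both groups, at 3.21, 6.29 and 5.86 against 5.18, 3.04 and 4.17 (-0.99 ± 0.91). H4c14 read 4.34, 4.78 and 4.40 against 4.33, 4.57 and 3.60 (-0.34 ± 0.29). H4c1, H4c2 and H4c17 were under background on every array, with differences between -0.43 and -0.27. The median of the 7 H4 genes was -0.34 and stayed below 0 in every set that left out 1 array and under each other scaling. That median takes in the 3 genes under background. The mark itself was lower on tumor arrays (3.24 to 3.45) than on wild-type arrays (3.70 to 3.86), so the steady sign does not settle the direction of the family.

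Some neighbouring copies read alike and others did not, in pairs chosen after their values were seen. H2ac21, H2ac20 and H2bc21 lie side by side in RefSeq, and the first and second were high in tumors 23 and 25 (2.92 and 3.05 above the wild-type mean for H2ac21, 3.59 and 3.39 for H2ac20). H2bc21 lay below its wild-type mean in the same tumors, at -0.33 and -0.38. H2bc12 was 1.64 and 2.02 above its wild-type mean in tumors 23 and 25, while H2ac12, whose promoter window overlaps its own, differed by -0.082 and 0.031, under background. H4c8 and H2ac10 are also neighbours. H4c8 differed from its wild-type mean by -2.51 and -3.27 in those tumors, where H2ac10 was 1.87 and 1.54 above.

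Tumor 24 was set apart from the other tumors in many of these genes, a pattern counted after the values had been seen. Tumors 23 and 25 both lay above all 3 wild-type arrays for 10 of the 27 genes (H1f1, H1f5, H2ac10, H2ac15, H2ac20, H2ac21, H2bc3, H2bc12, H2bc18 and H4c12), where 21% of all genes did. Of these 10, tumor 24 was above all wild-type arrays for H2ac20 alone. Tumors 23 and 25 both lay below all wild-type arrays for 6 genes (H1f2, H1f3, H1f6, H2bc14, H4c8 and H4c14), against 29.7% of all genes, and tumor 24 was below as well for H1f2, H1f3, H1f6 and H4c8. Tumor 24 was the lowest tumor for 19 of the 27 genes, against 39.2% of all genes. All 6 H2A genes were lowest there, as were 6 of 8 H2B, 4 of 6 H1 and 3 of 7 H4 genes. Set against wild-type means, the H2A median stood at 1.62, -0.31 and 2.29 in the 3 tumors in the order of their numbers.

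Genes of the cell cycle were also lowest in tumor 24 of the 3 tumors. Measured the same way and in the same order, the median of 30 S phase genes stood at 1.42, 0.53 and 1.76, and that of 19 mitotic genes at 1.89, 1.01 and 2.88. Tumor 24 was the lowest tumor for 25 of the S phase and 18 of the mitotic genes. These lists were not alone in this. Tumor 24 was also lowest for 11 of the 14 housekeeping genes, with list means of 8.29, 7.81 and 8.49 in the same order. It was lowest for 14 of the 21 histone chaperones and for 10 of the 21 genes of histone mRNA processing. Over the 7726 genes averaging 5 or more, medians against wild-type means were 0.32, 0.15 and 0.43. Over all 22180 genes they were -0.12, -0.14 and -0.11. Skeletal muscle markers differed between the same tumors too, with list means of 9.70, 3.58 and 6.79, where wild-type arrays had 3.24 to 3.43. None of those 4 markers passed the test in limma (2 at an unadjusted p under 0.05), and 3 of the 4 were under background on all wild-type arrays. The list mean of 4 basal markers was highest in tumor 24, at 7.67 where tumors 23 and 25 had 6.42 and 5.65. Myh11, a marker of that list, was instead highest in tumor 23, at 4.54, 4.31 and 4.10 in tumors 23, 24 and 25. The part of cell cycle, muscle or basal content in the histone values was not tested. Nor was the part of the lower values that brighter genes had in tumor 24.

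**Figure D3:**
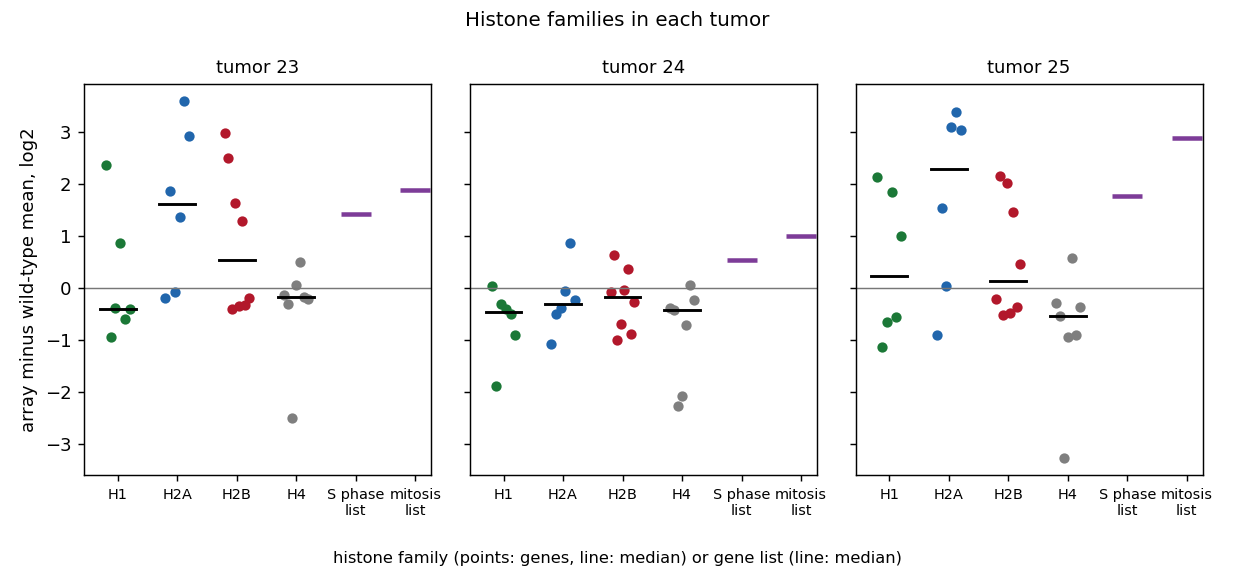
Each tumor array minus the mean of the 3 wild-type arrays, in log2 units (y axis), for the histone genes by family (points, with the family median as a black line) and for the medians of the S phase and mitosis lists (purple lines). H2A medians are 1.62, -0.31 and 2.29 for tumors 23, 24 and 25, and both cell cycle lists are also lowest in tumor 24.

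Of the S phase genes themselves, 3 of 30 rose and none fell (2.52% and 1.39% of all genes): the thymidine kinase Tk1 by 2.63 ± 0.33 (SE), the replication factor Gins4 by 2.22 ± 0.35 and the helicase subunit Mcm7 by 1.98 ± 0.26, with adjusted p of 0.018, 0.030 and 0.019 in limma. All 30 had higher means, with a median of 1.28. Without tumor 24, 12 passed, all upward (4.08% of all genes). None of the 3 passed without wild-type replicate 2, without replicate 4 or without tumor 23, Tk1 alone did without replicate 1, and Tk1 and Mcm7 did without tumor 25. The replication clamp Pcna read 8.85, 7.93 and 9.36 against 10.25, 8.84 and 9.65 (0.86 ± 0.48, adjusted p of 0.28). The ribonucleotide reductase subunit Rrm2 read 3.30, 2.97 and 3.61 against 4.52, 3.63 and 5.83 (1.37 ± 0.54, adjusted p of 0.17), and cyclin E1, Ccne1, read 4.17, 3.39 and 4.07 against 4.02, 4.48 and 5.62 (0.83 ± 0.44, adjusted p of 0.27). Ccne2 had no probe set of its own in the table used. The proliferation marker Mki67 read 5.93, 4.62 and 5.66 against 7.50, 7.92 and 8.53 (2.58 ± 0.42, adjusted p of 0.032), so it was not lowest in tumor 24.

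The machinery that makes and processes histone mRNA differed little in Slbp and Npat. Slbp, which binds the stem-loop, read 6.59, 6.72 and 7.17 in wild-type cells and 6.70, 6.27 and 7.18 in tumors (-0.11 ± 0.29, SE, adjusted p of 0.80 in limma). Npat, the coactivator of histone transcription, read 6.89, 6.73 and 7.12 against 6.99, 6.48 and 7.52 (0.08 ± 0.29, adjusted p of 0.86). Neither differed by more than the spread between arrays. Of 21 measured genes of this list none passed in limma, 7 were at an unadjusted p under 0.05 (26.4% of all genes were), and 16 had higher means, with a median difference of 0.51. The largest differences were those of Casp8ap2 (1.63 ± 0.54), a component of histone locus bodies, and of the cap-binding subunit Ncbp1 (1.63 ± 0.46), with adjusted p of 0.13 and 0.098. Without tumor 24, Lsm1 and Mif4gd passed upward, where 4.08% of all genes did. Those calls rest on 2 tumors.

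Among 21 histone chaperones, Chaf1a, the large subunit of the assembly factor that works behind the replication fork, rose (2.52% of all genes did). It read 3.85, 3.73 and 3.66 in wild-type cells and 5.34, 4.71 and 5.76 in tumors, which is 1.52 ± 0.28 higher (SE; adjusted p of 0.042, limma). Wild-type replicates 2 and 4 were under the background mark for Chaf1a, so the size of its rise is not settled. Chaf1a passed in 1 of the 6 sets that leave out an array, that without tumor 24. The other 20 did not pass, and the list median was 0.70. Of 8 measured histone genes made outside the clusters, the centromeric H3 variant gene Cenpa rose, from 5.17, 4.12 and 4.77 to 6.67, 5.89 and 6.67. That is 1.73 ± 0.35 higher, with an adjusted p of 0.049, a call kept in the set without tumor 24 and in no other that leaves out 1 array. H2ax, the damage-marked H2A variant, read 7.74, 6.34 and 7.48 against 10.24, 7.21 and 10.59, with tumor 24 in the wild-type range (2.16 ± 0.91, adjusted p of 0.19). H2ax passed without tumor 24, where 4.08% of all genes passed upward, and that call rests on 2 tumors. The variants H2az1 (0.029), H2az2 (-0.13), H2aj (-0.16) and Macroh2a1 (0.44) lay closer to 0, and the list median was -0.04.

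Probe sets that name several histone genes at once cannot be given to 1 copy, but they are the only reading of H3 here. There were 38 of them, of which 3 repeat the values of another, leaving 35. None passed limma's test over all 41345 probe sets (where 0.909% did), 6 were at an unadjusted p under 0.05 (against 21.9%), and 17 had higher and 18 lower means in tumors. A probe set naming 3 H2A genes read 10.68, 11.19 and 10.35 in wild-type cells and 11.89, 10.68 and 12.23 in tumors 23, 24 and 25. A probe set naming 12 H2B genes read 8.48, 8.76 and 8.02 against 10.33, 8.45 and 10.64. In both, tumors 23 and 25 were above every wild-type array and tumor 24 was within their range. Another probe set naming 12 H2B genes read 4.95, 4.76 and 4.50 against 5.59, 5.55 and 5.26, with all 3 tumors above every wild-type array and tumor 24 between the others (0.73 ± 0.20, SE, adjusted p of 0.13). A probe set naming 3 H2B genes went the other way, from 8.94, 10.62 and 9.31 to 8.21, 7.48 and 7.66, lower in all 3 tumors (-1.84 ± 0.47, SE, adjusted p of 0.12).

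Of 12 H3 probe sets, 4 had higher and 8 lower means in tumors, with a median difference of -0.15. Only 5 of the 12 were above background on any array, and of these 1 was higher and 4 lower, with a median of -1.67. Some of these 5 were above the mark in wild-type cells alone, so the filter itself lowers that median. One that names 8 H3 genes read 3.67, 3.55 and 4.52 in wild-type cells and 2.15, 2.09 and 2.28 in tumors, with all tumors and wild-type replicates 1 and 2 under background (-1.74 ± 0.29, SE, adjusted p of 0.061 in limma). Another that names 8 read 6.18, 5.54 and 6.18 against 6.18, 5.51 and 6.31, with groups that overlap throughout (0.030 ± 0.30). One more was split within the wild-type group, at 2.97, 6.22 and 6.66, and read 2.78, 3.74 and 2.69 in tumors. A further one was split there too, at 4.79, 2.98 and 5.88, and read 3.05, 3.08 and 2.52 in tumors, all under background (-1.67 ± 0.72). The H3 probe sets thus did not read alike.

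**Figure D4:**
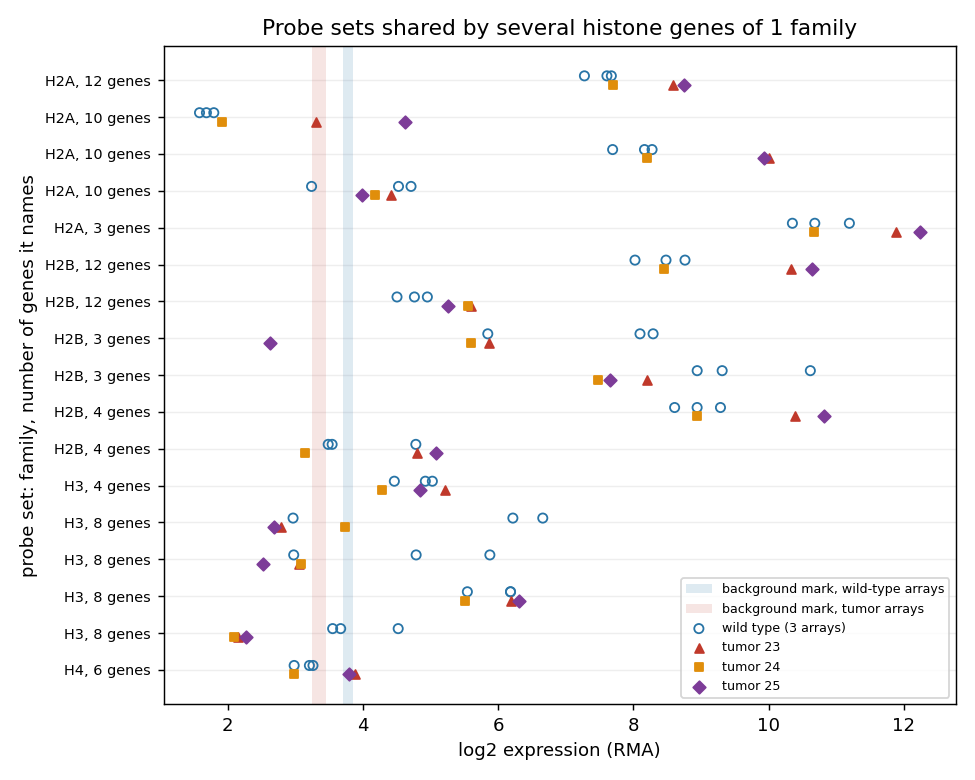
Log2 expression (x axis, RMA) of the distinct probe sets that name several histone genes of 1 family and exceed the background mark on at least 1 array; rows give the family and the number of genes named, symbols are as for the single genes, and bands are the background marks. In the H2A row of 3 genes and the upper H2B row of 12 genes tumors 23 and 25 lie above the wild-type arrays and tumor 24 among them, while the lower H2B row of 3 genes goes from 8.94, 10.62 and 9.31 to 8.21, 7.48 and 7.66.

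The labelled cell types were checked on defining markers. Luminal markers had list means of 8.19 to 8.60 on the wild-type arrays and 6.76 to 7.39 in tumors, where 3 of 10 fell and 2 rose. The 2 that rose were Kit and Elf5, and Elf5 was under background on every wild-type array. All 5 macrophage markers rose, from list means of 4.05 to 4.75 to between 6.91 and 7.67. B cell markers (2.54 to 2.74 and 2.57 to 2.87) stayed near background, T cell markers measured 3.70 to 4.76 and 3.82 to 4.46, and fibroblast list means were at most 6.21 in wild-type cells and 6.42 to 7.09 in tumors. Of the 4 fibroblast markers Pdgfrb rose, while Dcn differed by -2.76 ± 0.56 without overlap (adjusted p of 0.052, limma). Dcn was bright on the wild-type arrays, at 10.10, 11.11 and 10.87, and read 9.16, 7.52 and 7.11 in tumors. The other fibroblast markers had wild-type means of 3.66 to 5.80. Basal list means were 6.10 to 6.73 on the wild-type arrays, and tumor 24 was above them. Krt14 read 10.11, 11.64 and 7.63 in tumors 23, 24 and 25 and Trp63 3.72, 6.93 and 4.50, and of the 4 basal markers Myh11 alone passed, downward. None of 3 adipocyte markers passed (2 at an unadjusted p under 0.05), with list means of at least 4.94 in wild-type cells and 3.90 to 4.68 in tumors. Fabp4 read 10.75, 10.84 and 8.61 in wild-type cells and 8.22, 7.08 and 6.30 in tumors, while Adipoq was under background on every array. Endothelial markers were highest in tumor 25 (6.73, against 5.33 and 5.56 in tumors 23 and 24), with list means of 5.34 to 6.22 on the wild-type arrays. Macrophage means were 7.67, 7.32 and 6.91 in tumors 23, 24 and 25 and fibroblast means 6.77, 7.09 and 6.42. The part of basal, macrophage or other cells in the histone values of either group was not tested.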

How the data were processed

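Total RNA of 6 samples was amplified with a NuGEN Ovation kit and labelled with biotin, per the labels' protocols. The deposited values are log2 expression per probe set, made by the authors with RMA (which subtracts background, equalizes the arrays' distributions and sums up probes) and oligo, per the submitters' processing notes, without versions. RMA compresses differences near background. How the amplification treats RNA without a poly(A) tail is not given in the sources used here. Of 41345 probe sets, 23521 named 1 gene, 1814 several and 16010 none in the platform annotation; 23328 were matched to RefSeq (GRCm38.p6) by Entrez identifier. No scanner files were used, so no batch was tested, and precision rests on the number of arrays.

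Tumors were compared with wild-type cells by limma 3.58.1 in R 4.3.3 (lmFit, eBayes, two-sided, no covariates), on the brightest probe set of 22180 genes, with Benjamini-Hochberg adjustment over all of them and a threshold of 0.05. Differences are given as tumor over wild type in log2 units, with limma's moderated error. The step was tested on simulated data. The members, gene lists and background mark were chosen with earlier results of these data known. Genes were named by family: those past the threshold, those with the largest differences, the brightest and dimmest, and germ cell copies; of other lists, those past the threshold or else the 2 with the largest differences, and fixed markers. H2ax, the other variants, Lsm1, Mif4gd and the named luminal, basal, fibroblast and adipocyte markers were named after their values were seen. Alternatives were 2 filters on dim genes, averaging each gene's probe sets, testing them singly, quantile normalization again, cyclic loess, housekeeping centring, a trended robust prior, array weights and each array left out; dropping H1f10 and germ cell genes, and testing every probe set, were added after seeing the data.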

Additional observations from a re-analysis of the deposited data

How the results depend on the processing

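With 3 arrays a group, calls moved with single arrays. Over the sets that leave out 1 array, calls over all genes ran from 72 to 1200 (867 with all arrays) and histone genes passing from 0 to 6. The histone median ran from -0.22 to -0.03 and S phase calls from 0 to 12. Calls among mRNA processing genes, chaperones and variants outside the clusters ran from 0 to 2 each. Without single arrays H1f10 reached 0.30, and H2bc1 (-0.15), H2bc22 (-0.23) and H4c12 (-0.12) changed sign, with ranges of -0.66 to 0.30, -0.15 to 1.45, -0.23 to 0.33 and -0.12 to 0.53.

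The housekeeping genes were themselves higher in tumors, by a median of 0.98. Of the scalings, housekeeping centring shifted all genes, from a median of -0.12 to -0.77. It gave 8509 calls over all genes, 11 among histone genes (1 higher, 10 lower), a histone median of -0.81, 8 S phase, 2 processing and 2 variant calls, and turned H2bc22 to -0.66 and H4c12 to -0.55. Of calls over all genes, 559 of 867 were higher. A second quantile normalization made it 433 of 778, and housekeeping centring 564 of 8509. Cyclic loess turned H2ac12 to 0.027. After either quantile normalization again or cyclic loess, chaperone and variant calls were 0.

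With a mean of at least 5, 1 histone gene of 6 passed (H4c8), with a median of 0.54 (0.32 over all such genes). Calls were then 6 for S phase, 1 for processing and 0 for chaperones. In the brighter part of the genes (mean at or over the median) 1 histone gene, H4c8, and 6 S phase genes passed. A trended robust prior gave 1 histone (H4c8) and 2 variant calls. Array weights gave 1324 calls, 1 histone (H2ac20), 6 S phase and 2 processing calls. With the mean of probe sets, and with probe sets singly, variant calls were 0. Of 341 other values of single histone genes, 307 kept direction and side of the threshold, 21 passed it newly and 13 changed sign. No paired analysis was possible because the labels give the groups no replicate number in common.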
